A study of Mus musculus with 2 samples.

Results

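Cytosolic ribosomal protein genes encode the protein parts of the ribosome that works outside mitochondria, and this account describes their transcripts in mouse embryoid bodies. The genes were chosen by name: every symbol starting with Rpl or Rps and a digit, plus Rplp0, Rplp1, Rplp2 and Rpsa, without the Rps6k kinases and names with -ps, which mark pseudogenes. Rpl22, Rpl22l1, Rps27, Rps27l, Rpl3, Rpl5 and Rpl11 were also left out. This gave 80 of the 33670 symbols in the 2 libraries, of which 47 carry large subunit names and 33 small subunit names. Of these 80, 72 are the usual ribosomal proteins, called core genes here, and the other 8 are 5 paralogs (Rpl3l, Rpl10l, Rpl36al, Rpl39l and Rps27rt) and 3 genes whose products are not counted among ribosomal proteins (Rps19bp1, Rpl7l1 and Rps23rg1).

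Both libraries came from J1 embryonic stem cells, a male mouse line, grown for 2 days as embryoid bodies, which are floating clumps of differentiating cells. One culture received DMSO, the solvent control, and the other dTAG13, each for 2 days. The compound dTAG13 is a small molecule that sends proteins carrying an FKBP12-derived tag to the proteasome. The series is titled after Tex10, a nuclear protein known for its part in processing ribosomal RNA and in stem cell transcription, but the protein that bears the tag, and whether the line is a single clone, are not stated in the labels. Cells were freed with trypsin, strained and run on 10x Chromium 3′ chemistry, with 1 library per group, so there is no replicate check. No p-value is given, and every interval below covers counting error only, not differences between cultures.

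Each ribosome needs 1 copy of nearly every ribosomal protein, and the transcripts of these genes are among the most abundant of growing cells. Their mRNAs mostly begin with a C and a run of pyrimidines, the terminal oligopyrimidine or TOP motif, through which mTOR signalling and the RNA-binding protein Larp1 control how much they are translated. Translation cannot be read from these data, which count mRNA molecules. The large subunit joins amino acids and holds the tunnel through which the new protein leaves, and the small subunit binds and decodes the mRNA.

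Cells with fewer than 500 genes or more than 10% mitochondrial UMIs (unique molecular identifiers, each counted as 1 captured mRNA) were left out. The rest were 17878 cells with DMSO and 11588 with dTAG13, holding 117189816 and 91808969 UMIs, and 63 barcodes occurred in both. Median depth per cell was 6014 UMIs with DMSO and 7072.5 with dTAG13, and the mitochondrial genome gave 2.53% and 2.04% of UMIs. Stem cell genes were present in both libraries, with Pou5f1 at 612 and 516 CPM, meaning UMIs per 1000000 UMIs of the library. In a fibroblast list Col3a1 and Lum had 0 UMIs in both libraries. The rest of that list had few, with Col1a1 at 28 and 38 UMIs, Col1a2 at 4 and 2, and Thy1 at 67 and 21. Genes of other lineages went both ways. In a neural list Neurod1 stood at 3.49 CPM with DMSO and 44.5 with dTAG13, and Nes and Sox1 were also higher. Tubb3 in that list was lower, at 53.4 and 38.0 CPM, and so was Pax6, at 2.76 and 0.686. In a trophoblast list Krt7 stood at 1.54 and 8.19 CPM. Its other genes were below 5 CPM in both libraries, with Cdx2, Gata3, Hand1 and Tfap2a higher and Elf5 lower. The part of cells of other lineages in the differences below was not tested.

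The ribosomal protein genes together made up 31.7% of all UMIs with DMSO and 32.5% with dTAG13. The summed level was thus 1.02 times as high with dTAG13, with a counting interval that is narrow because of the number of UMIs. Large subunit genes rounded to 17.7% and 17.9%, a ratio of 1.015, and small subunit genes to 14.1% and 14.5%, a ratio of 1.034, but with median-of-ratios scaling both ratios lay below 1, at 0.952 and 0.969. That scaling takes the median gene as unchanged, and it moves every log2 ratio down by 0.09. The order of the subunits did not depend on the scaling, since it cancels when large is divided by small. With DMSO there were 1.26 large subunit UMIs for each small subunit UMI, and with dTAG13 there were 1.23, but in 7 of 9 clusters of cells the ratio was the higher one with dTAG13.

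In single cells the share was broad within each library compared with the shift between libraries. After each cell was thinned to 3900 UMIs, which left 16123 and 10815 cells, the median cell had 31.8% of its UMIs in these genes with DMSO, with the middle of the cells from 29.8% to 33.8%. With dTAG13 the median was 32.6%, with the middle from 30.6% to 34.6%, so the middle ranges overlapped over most of their length. The standard deviation over cells was 2.99 percentage points with DMSO and 3.06 with dTAG13, against 0.746 and 0.750 from counting alone. Without thinning the medians were 31.9% and 32.6%.

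The named members covered a wide range of levels, and 79 of the 80 reached 5 CPM in 1 or both libraries, 72 of them 1000 CPM. UMIs of 3′ chemistry count 1 end per transcript and are not scaled by length, but capture differs between genes, so the order of levels is only approximate. Rpl13, a large subunit protein, was the highest member at 14065 CPM with DMSO and 14005 with dTAG13. It barely differed between the libraries, with a ratio of 0.996. Other abundant members were Rplp1, an acidic protein of the stalk that recruits elongation factors, at 8636 and 9002 CPM, and Rpl41, the smallest ribosomal protein, at 6937 and 6555. Rps12 stood at 7842 and 7887 CPM, and Rps20 at 7517 and 7604. At the other end, the muscle paralog Rpl3l was under 5 CPM in both, with 90 and 48 UMIs. Rpl29 was low at 47.4 and 53.5 CPM. Ribosomal protein genes have many processed pseudogenes and near-identical copies, and no source used here says how reads shared with them were counted, so levels of single genes are uncertain.

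Most members differed little between the libraries. Of the 79 measured members, 53 (67.1%) had a higher CPM with dTAG13 and 26 a lower one, against 60.3% of all 8817 measured genes that were higher. The members had a median log2 ratio of 0.04 and a middle range from −0.03 to 0.10. At least 1.2-fold higher were 3 members, against 32.9% of the 8817 genes at 5 CPM or more, and at least 1.2-fold lower were 4, against 16.8%. No member with 5 CPM or more was 1.5-fold apart in either direction, where 14.2% of all genes were higher and 5.4% lower. The genes of similar abundance are a closer yardstick. Of the 80 non-members with 1000 CPM or more, 8.75% were 1.2-fold or more above and 35% as far below, while 2 of the 72 members at that level were above and 2 below. At 1.5-fold those shares were 2.5% and 2.5%, and 0 of the 72 members. The median log2 ratio over those 80 abundant genes was −0.17, with 22 of them higher, against 0.04 for the 72 members, with 49 higher.

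**Figure D1:**
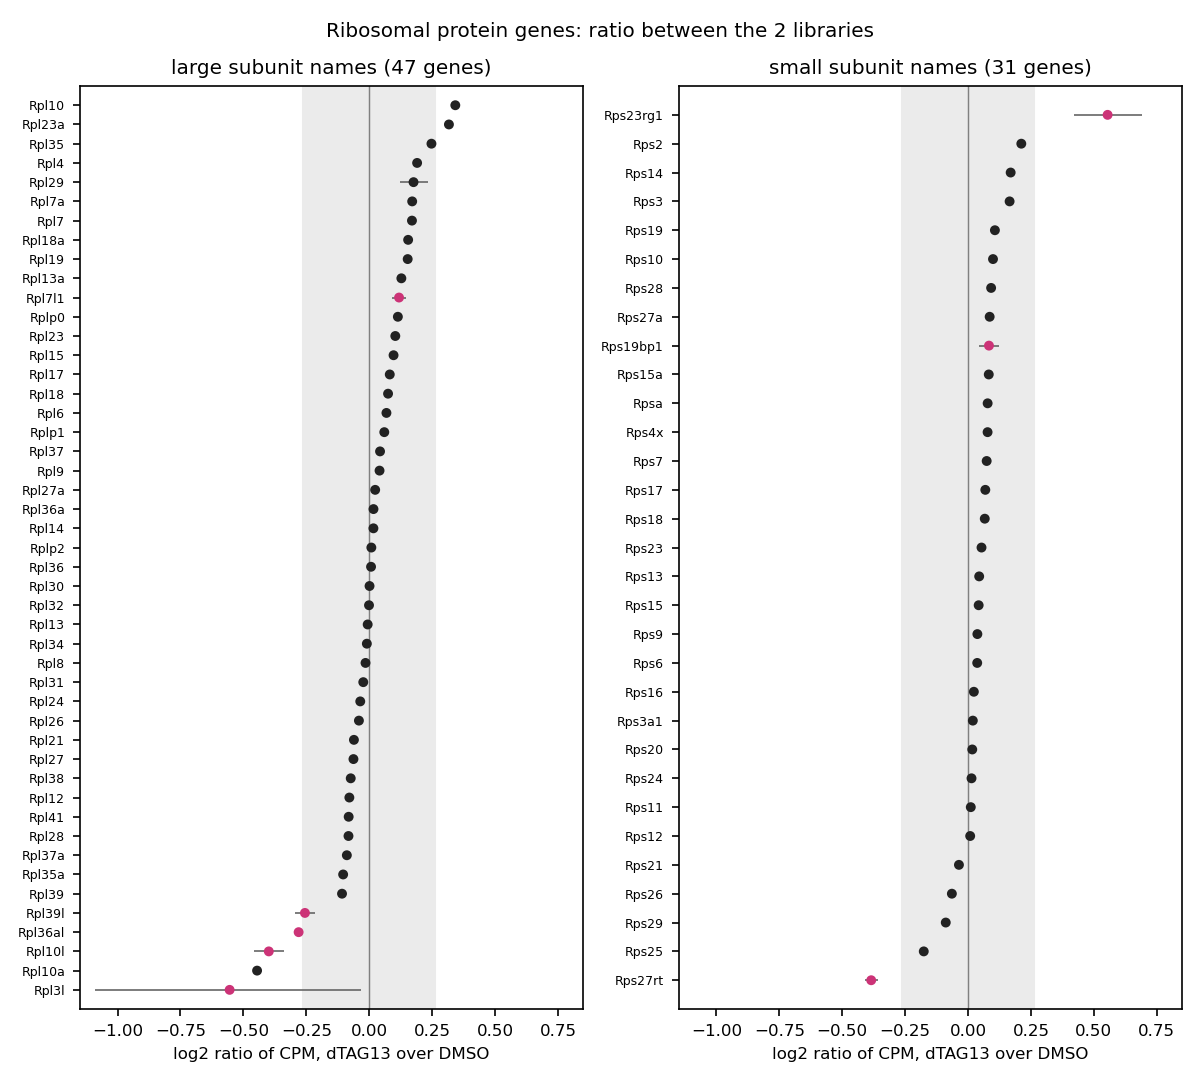
Log2 ratio of CPM, dTAG13 over DMSO, for 78 of the 80 genes, split into large and small subunit names, with core genes in black, paralogs and genes with other products in pink, lines for the 95% counting interval and a grey band for differences within 1.2-fold. Among core genes, Rpl10 and Rpl23a lie above the band and Rpl10a below it, and the small subunit genes are spread less than the large ones.

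The log2 ratios of the small subunit genes were less spread than those of the large subunit genes. Among the 33 small subunit names, 27 had a higher CPM with dTAG13 and 6 a lower one, and the middle range of their log2 ratios was 0.07 wide around a median of 0.05. Among the 46 measured large subunit names, 26 were higher and 20 lower, with a middle range 0.17 wide around a median of 0.01. Restricted to core genes, 25 of 30 small subunit genes were higher and 25 of 42 large subunit genes, and no core small subunit gene passed 1.2-fold in either direction. With median-of-ratios scaling the medians became −0.04 for small and −0.08 for large subunit names.

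Rpl10a and Rpl10, whose names differ by 1 letter but which encode unrelated proteins, marked the opposite ends of the core genes. Rpl10a (ENSMUSG00000037805), the protein of the mobile L1 stalk where spent tRNA leaves, had 3772 CPM with DMSO and 2769 with dTAG13. The ratio was 0.734, with a counting interval from 0.731 to 0.738. Rpl10a was the only core gene at least 1.2-fold lower. Rpl10 (ENSMUSG00000008682), which joins the large subunit at a late step next to the catalytic centre, went from 1396 to 1769 CPM, a ratio of 1.27 with an interval from 1.26 to 1.28. Both differences kept their direction under every scaling and cell choice tried.

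The proteins around the exit tunnel included both high and low ratios. Of the 7 genes listed there, 4 (57.1%) were higher and 3 lower with dTAG13, near the 60.3% of all measured genes that were higher. Their log2 ratios ran from −0.11 to 0.32, the widest range of the 4 structural groups listed. Rpl23a (ENSMUSG00000058546), the docking place for the signal recognition particle at the tunnel mouth, had 2782 CPM with DMSO and 3465 with dTAG13, a ratio of 1.25 with an interval from 1.24 to 1.25. Its neighbour Rpl35 (ENSMUSG00000062997) had 1051 and 1247 CPM, a ratio of 1.19. Rpl39, a very short protein inside the tunnel, went the other way with 2788 and 2587 CPM, a ratio of 0.928. Rpl4, which reaches into the tunnel wall and was not in that list, had 1707 and 1947 CPM, a ratio of 1.14. The stalk genes Rplp0, Rplp1, Rplp2 and Rpl12, which bring in elongation factors, stayed close together, with 3 of 4 higher and a median log2 ratio of 0.03.

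In the small subunit, most genes of both the head and the body had a higher CPM with dTAG13. Of 14 head genes 12 (85.7%) were higher, with a median log2 ratio of 0.07. Of 16 body genes 13 (81.25%) were higher, with a median of 0.04. Among all measured genes 60.3% were higher. Rps2 (ENSMUSG00000044533), at the entry of the mRNA channel, had 3864 CPM with DMSO and 4474 with dTAG13, the highest core small subunit ratio at 1.16. Rps3, also at the channel entry, had 3387 and 3797 CPM. Rps14 had 5111 and 5747 CPM. Rps19, the gene most often mutated in Diamond-Blackfan anaemia, stood at 5034 and 5420 CPM, a ratio of 1.08, but within the 9 clusters its ratios ran from 0.910 to 0.986, all below 1. The ratios of Rps14, Rps3 and Rps19 lay between 1.08 and 1.12, below that of Rps2. Rps25 (ENSMUSG00000009927), a head protein needed by some viral RNAs that start translation internally, was the lowest core small subunit gene, with 2797 and 2475 CPM and a ratio of 0.885. Rps29 followed with 1899 and 1786 CPM, Rps26, which contacts mRNA at the channel exit, with 7053 and 6745, and Rps21 with 3774 and 3680. The 14 members known as Diamond-Blackfan anaemia genes had a median log2 ratio of 0.07, with values from −0.10 to 0.25. Of them 9 (64.3%) were higher and 5 lower, near the share of all measured genes, whose median was 0.09.

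The measured paralogs were all lower with dTAG13 in the library totals, though Rpl10l was lower in only 4 of the 9 clusters described below. These copies arose from ribosomal protein genes, and Rpl10l and Rpl39l are known for their roles in the male germ line. Rpl10l had 53.1 CPM with DMSO and 40.3 with dTAG13, Rps27rt 284 and 217, Rpl36al 1561 and 1285, and Rpl39l 112 and 93.8. The ratios ran from 0.758 for Rpl10l to 0.838 for Rpl39l, and 3 of the 4 passed 1.2-fold, against 16.8% of all measured genes as far below. Among their parent genes, Rpl10 was higher, Rpl39 lower, and Rpl36a was at 2508 and 2538 CPM, a ratio of 1.01. Paralogs and parents are close in sequence, so the split of reads between a paralog and its parent is uncertain. Of the 3 genes with other products, Rps23rg1, a retrogene known for a role in signalling, was low with 7.2 and 10.6 CPM and a ratio of 1.47, while Rps19bp1 stood at 104 and 110 and Rpl7l1 at 172 and 187.

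Ribosomal proteins that the naming rule does not reach went both ways. Fau, which encodes a ubiquitin-like protein fused to a small subunit protein, had 6640 CPM with DMSO and 5859 with dTAG13. Its ratio was below 1, at 0.882. Rps27a, a core gene that also encodes a ubiquitin fusion, was at 6851 and 7270 CPM. Rack1, a scaffold for kinases bound to the small subunit head, went from 3510 to 4140 CPM, a ratio of 1.18. The 7 genes left out by the rule together made up 1.36% and 1.31% of UMIs. The 4 pseudogene names made up 0.0520% and 0.0461%, nearly all of it from Rpl10-ps3 (260.5 and 245 CPM) and Rpl9-ps6 (258 and 215 CPM).

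Start windows are shown here for genes from both ends of the ratios and from the middle, all of them genes whose window holds a run of pyrimidines. They show pyrimidine runs near annotated starts and are not a sample of the core genes. A run that does not begin at the first base of the mRNA is not itself a TOP motif. Sequences and start sites come from RefSeq on GRCm38.p6, where 53 of the 72 core genes matched an entry. Each line gives 30 bases before the start site and 30 from it onward, on the gene's own strand, with capitals marking runs of at least 8 pyrimidines that begin with C, or as much of such a run as lies in the window.
Rpl10a: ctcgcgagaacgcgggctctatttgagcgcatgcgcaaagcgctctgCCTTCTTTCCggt
Rps25: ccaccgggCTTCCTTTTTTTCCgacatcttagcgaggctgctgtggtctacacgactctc
Rpl28: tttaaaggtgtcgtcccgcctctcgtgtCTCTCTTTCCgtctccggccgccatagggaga
Rplp2: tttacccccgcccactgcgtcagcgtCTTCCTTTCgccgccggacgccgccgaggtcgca
Rps6: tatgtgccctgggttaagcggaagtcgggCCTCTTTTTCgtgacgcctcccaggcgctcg
Rpl4: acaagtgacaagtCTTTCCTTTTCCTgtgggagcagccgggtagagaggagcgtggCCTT
Rpl7a: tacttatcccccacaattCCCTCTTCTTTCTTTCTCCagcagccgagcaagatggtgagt
Rpl35: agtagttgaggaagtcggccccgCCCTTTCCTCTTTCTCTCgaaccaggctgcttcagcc
The windows lie at chr17:28328535-28328594 (+) for Rpl10a, chr9:44407684-44407743 (+) for Rps25, chr7:4792935-4792994 (+) for Rpl28 and chr7:141447621-141447680 (+) for Rplp2. The others lie at chr4:86857338-86857397 (−) for Rps6, chr9:64173357-64173416 (+) for Rpl4, chr2:26910777-26910836 (+) for Rpl7a and chr2:39005102-39005161 (−) for Rpl35. Each spans an annotated start of the gene and runs into its first exon. The run begins 22 bases before that start in Rps25 and 17 bases after it in Rpl10a. In Rpl4 the first run begins 17 bases before the start and ends ahead of it, as the run in Rps25 does. The run overlaps the start in Rpl28, Rplp2, Rps6, Rpl7a and Rpl35. RefSeq gives Rpl10a a further start upstream, whose window holds no such run.

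The tract was common among these genes, but it need not begin at the first base of the mRNA as a TOP motif does. From 50 bases before to 50 after the start, on the transcribed strand, 44 of the 53 matched core genes held a C followed by 7 or more pyrimidines (83.0%), against 32.0% of 27025 genes in the table. The 44 genes with the tract had a median log2 ratio of 0.02, with values from −0.45 to 0.34. The 9 without it had a median of 0.08, with values from −0.04 to 0.16. The difference was not tested. A pair of further motifs was searched on both strands from 250 bases before to 50 after the start: CCGGAAG, which ETS family factors bind, and AANATGGC, which Yy1 binds. CCGGAAG was in 43.4% of the core genes and 9.93% of all genes, and AANATGGC in 17.0% and 6.96%. Read on the other strand CCGGAAG is CTTCCGG, whose first 5 bases can lie in the tract, and a match is a description of letters, not evidence of binding.

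Core genes with longer coding sequences had higher ratios. Across the 72 core genes, Spearman's rho between the longest annotated coding length and the log2 ratio was 0.51, as a description across genes that share the same 2 libraries. It was 0.48 in the large and 0.47 in the small subunit, and 0.55 without Rpl10a, which lies far from the rest. The 36 genes at or below the median length of 462 bases had a median log2 ratio of 0.01, with 21 above 0, and the 36 longer genes 0.08, with 29 above 0. Among 79 abundant non-members the same rho was 0.10, and among 8459 non-members at 5 CPM or more it was 0.16. With transcript length the contrast was smaller, with a rho of 0.38 for the core genes, 0.21 in the small subunit, and 0.28 for the abundant non-members. Within the 9 clusters the rho with coding length ran from 0.22 in cluster 3 to 0.51 in cluster 0. The level of the core genes had a rho of −0.05 with the ratio. This relation was looked for after the ratios of single genes had been seen, and its part in the differences above was not tested.

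**Figure D2:**
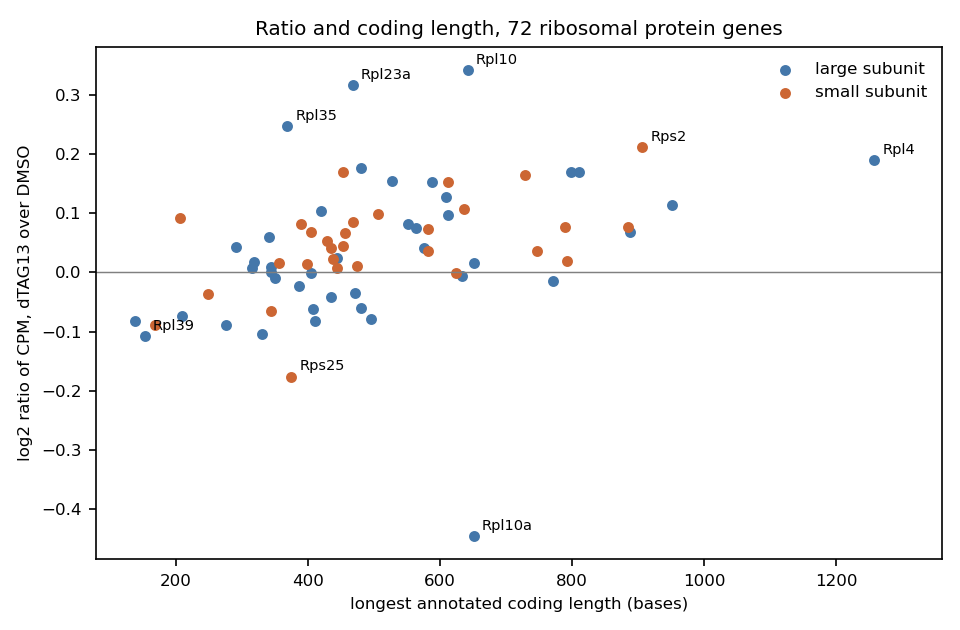
Log2 ratio of CPM, dTAG13 over DMSO, against the longest annotated coding length in bases for the 72 core genes, with each point 1 gene and the subunits in different colours. Short genes such as Rpl39 lie lower and long genes such as Rpl4 higher, with Rpl10a far below the other points.

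The difference between libraries depended on which cells were compared. Cells were called by cell cycle phase from other genes, only among the 16123 and 10815 cells with at least 3900 UMIs, as were the clusters described below. In cells called G1 the ribosomal protein genes made up 33.0% of UMIs with DMSO and 33.6% with dTAG13, and in cells called G2 or M 31.6% and 32.4%. In cells called S they made up 31.4% and 31.3%, and there the large and small subunit sums had ratios of 0.994 and 0.999. The G1 call covered 1095 cells with DMSO and 2437 with dTAG13, the S call 2726 and 1161, and the G2 or M call 12302 and 7217, so the libraries differed in the mix of calls.

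The share also moved with depth, and differently in each library. Among DMSO cells it was 33.2% below 4000 UMIs, 32.1% from 4000 to 8000, 30.9% from 8000 to 16000 and 30.7% above. Among dTAG13 cells it was 32.8%, 32.6%, 32.3% and 32.5% in the same bins. The dTAG13 share minus the DMSO share was therefore −0.449 percentage points in the shallowest bin and 1.78 points in the deepest, which held 179 DMSO and 538 dTAG13 cells. The ratio of large to small subunit UMIs was lower with dTAG13 in all 4 bins, though not within most clusters described below, from 1.23 against 1.19 in the shallowest to 1.27 against 1.24 in the deepest.

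**Figure D3:**
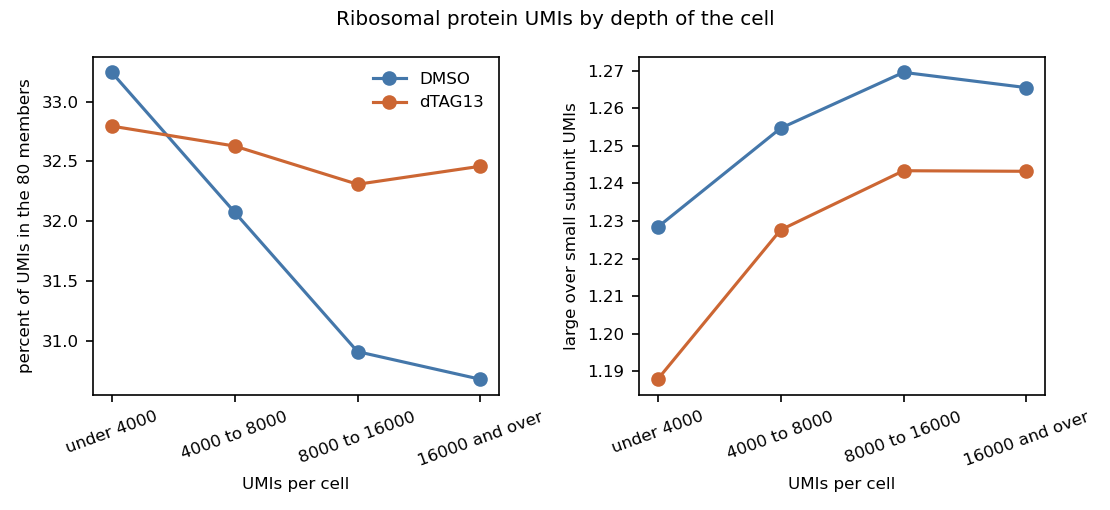
Percent of UMIs in the 80 ribosomal protein genes (left) and large over small subunit UMIs (right), by UMIs per cell, for the DMSO and the dTAG13 library, with each point the sum over the cells of a bin and vertical axes that do not start at 0. The DMSO share falls from 33.2% to 30.7% with depth while the dTAG13 share stays between 32.3% and 32.8%, and the dTAG13 points lie below the DMSO points in all bins on the right.

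Clustering without the ribosomal protein genes separated the libraries, and within clusters the direction of the sums turned. The 16123 DMSO and 10815 dTAG13 cells with at least 3900 UMIs formed 12 clusters, so that the shallow cells are not in them. Most clusters came largely from 1 library, so that a cluster may stand for a library and not for a kind of cell, and they are given by number and leading genes. Doublets were not removed. In the 9 clusters to which both libraries gave 50 cells or more, the ribosomal protein share was higher with dTAG13 in 1. The large subunit ratio ran from 0.955 to 1.01 and was above 1 in 2 of the 9, and the small subunit ratio ran from 0.952 to 0.9998 and was above 1 in 0 of the 9. The ratio of large to small subunit UMIs, lower with dTAG13 over all cells and in the 4 depth bins, was higher with dTAG13 in 7 of the 9, for example 1.29 against 1.27 in cluster 0, and lower in clusters 8 and 9. The dTAG13 cells had the higher median depth in all 9, for example 8591.5 against 6308 UMIs in cluster 0.

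The share ranged more widely across clusters than between the libraries as wholes. The lowest share was in cluster 4, led by Soga3, Lpar1 and Mapt, with 29.8% in 2716 DMSO cells and 28.4% in 171 dTAG13 cells. The highest share among these 9 was in cluster 3, led by Krt19, Prph and Sct, with 33.3% in 90 DMSO cells and 33.5% in 2828 dTAG13 cells. Cluster 0, led by Krt17, Fgf17 and Plac8, was the largest DMSO cluster and had 31.8% in 5199 DMSO cells and 30.6% in 178 dTAG13 cells. Cluster 2, led by histone genes, was the largest dTAG13 cluster and had 32.7% in 315 DMSO cells and 32.4% in 3200 dTAG13 cells. In clusters 2, 3 and 6, held mainly by dTAG13 cells, the share of DMSO cells was 32.6% to 33.3%, and in the other 6 it was 29.8% to 32.5%.

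**Figure D4:**
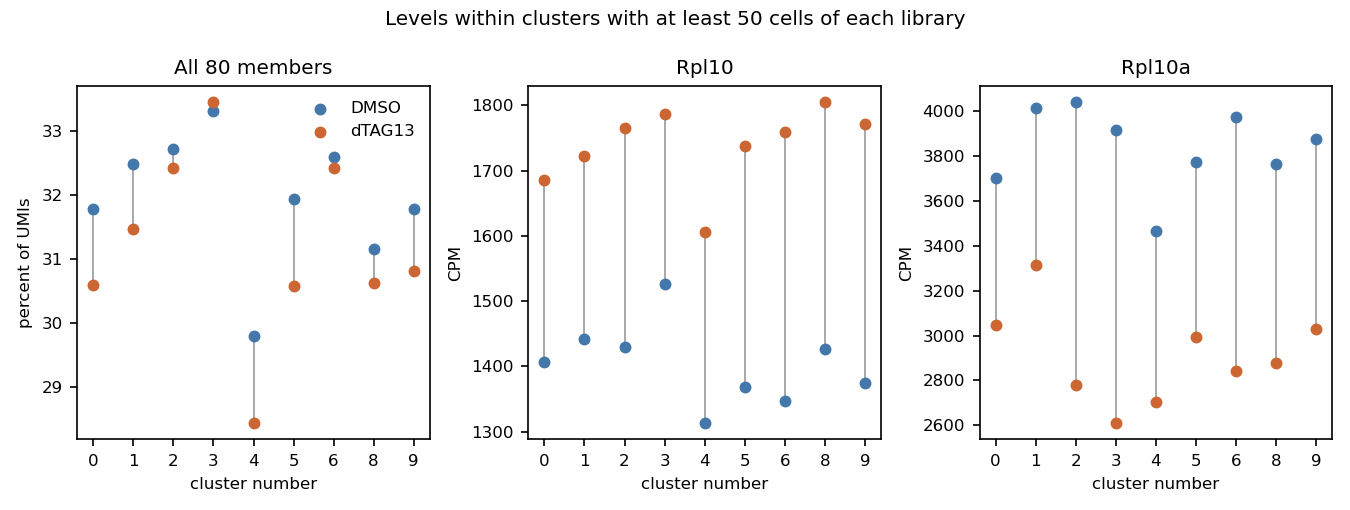
Ribosomal protein transcripts in the 9 clusters that hold 50 or more cells from both libraries, as percent of UMIs for all 80 genes (left) and as CPM for Rpl10 (middle) and Rpl10a (right); each point is the sum over the cells of 1 library in 1 cluster, and the vertical axes do not start at 0. The share is lower with dTAG13 in all 9 but cluster 3, while Rpl10 is higher and Rpl10a lower with dTAG13 in 9 of 9.

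The genes at the ends of the range kept their direction inside the clusters, though the clusters are parts of the same 2 libraries and not replicates. Rpl10 was higher with dTAG13 in 9 of 9 clusters, with ratios from 1.17 to 1.31, and Rpl10a lower in 9 of 9, from 0.666 to 0.826. Rpl23a was higher in 9 of 9, from 1.06 to 1.25, and so was Rpl35, from 1.03 to 1.17. Rps25 was lower in 9 of 9, from 0.825 to 0.994, and Rpl39 from 0.865 to 0.937. By CPM, 8 of the 72 core genes were higher in each of the 9 clusters and 22 lower in each. The balance turned when each gene was taken as a share of all core gene UMIs, with 20 higher and 11 lower. By CPM, the same held for 8.32% and 4.58% of all genes with 5 CPM or more, and for 18.8% and 38.8% of the non-members with 1000 CPM or more.

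The paralogs split under the same comparison. Rpl36al was lower in 9 of 9 clusters, with ratios from 0.850 to 0.950, and Rps27rt in 9 of 9, from 0.582 to 0.786. Rpl10l was lower in 4 of 9 and Rpl39l in 7 of 9, so the lower totals of Rpl10l were not seen inside most clusters. Rpl39l varied more between clusters than between libraries, from 36.7 CPM in DMSO cells of cluster 8 to 285 in those of cluster 9. In cluster 4 it stood at 274 CPM with DMSO and 391 with dTAG13.

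Other genes that act with ribosomal proteins gave values to set beside them. Of 22 further genes with TOP mRNAs, most of them translation factors, 13 (59.1%) were higher and 9 lower with dTAG13, with a median log2 ratio of 0.05. That share was close to the 60.3% of all measured genes that were higher. Past 1.2-fold were 4 above and 2 below, against 32.9% and 16.8% of all measured genes. Eef1a1, which delivers tRNAs to the ribosome, had 4763 CPM with DMSO and 6883 with dTAG13, a ratio of 1.44 above that of any core gene. Eef2, which moves the ribosome along, had 494 and 636 CPM, and the poly(A)-binding protein gene Pabpc1 727 and 899. Eef1d, which recharges the first of these factors, went the other way with 668 and 487 CPM, and so did Nap1l1, a histone chaperone, with 1840 and 1458. The middle range of the log2 ratios of these TOP genes was 0.31 wide, against 0.13 for the measured ribosomal protein genes. Their full range ran from −0.46 to 0.53, and that of the 72 core genes from −0.45 to 0.34. Over all measured members the upper end was 0.55, from Rps23rg1 at 7.2 and 10.6 CPM.

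Regulators and chaperones of ribosomal proteins were also counted. Of 12 measured genes of mTOR signalling and TOP control, 9 were higher and 3 lower, with a median log2 ratio of 0.15, against 60.3% of all measured genes higher and a median of 0.09. The 3 lower ones were Mtor at 18.4 and 17.8 CPM, Larp1 at 80.7 and 77.0, and the translation inhibitor Eif4ebp1 at 632 and 585. The counting interval of the Mtor ratio, from 0.905 to 1.03, included 1. Rps6kb1, the kinase that phosphorylates Rps6, was among the 9 higher ones, at 48.3 and 56.2 CPM. Of 13 measured genes for chaperones and import factors of ribosomal proteins, 8 were higher and 5 lower, with a median of 0.06. Nap1l1, given above, is in this list as well as among the TOP genes. Tnpo1, an import receptor, had 33.2 and 41.3 CPM. The 78 measured mitochondrial ribosomal protein genes, which build the separate ribosome of mitochondria, differed from the cytosolic set: 25 were higher and 53 lower, with a median log2 ratio of −0.11, with 6 above 1.2-fold and 21 as far below. Among all measured genes those shares were 32.9% and 16.8%. Mrpl12 had 240.0 CPM with DMSO and 143 with dTAG13, and Mrpl14 129 and 85.5. Together they made up 1.02% of UMIs with DMSO and 0.919% with dTAG13.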

How the data were processed

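The deposited files hold whole-number UMI counts per gene and cell for 1 DMSO and 1 dTAG13 library. Per the file headers the authors made the counts with Cell Ranger 8.0.1. Per the submitters' processing notes Seurat 5.0.1, R 4.3.2 and the mm10 build were used. The annotation release and the calling of cells from empty droplets are not given in the sources used here. Counts of 26 symbols with 2 identifiers were summed. Cells with under 500 genes or over 10% mitochondrial UMIs were left out, and UMIs were summed per library and divided by the total (CPM). Ratios have exact 95% intervals for counting error only. With 1 library per group no test across replicates was possible, so folds of 1.2 and 1.5 describe size and call nothing significant.

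For shares per cell, phases and clusters, cells were thinned to 3900 UMIs, and shallower cells left out; sums over a phase or cluster use all UMIs of the cells left. Phases were called from lists of S and G2 or M genes. Clusters (Leiden, resolution 1, 15 neighbours, 30 components, 1976 variable genes) were made without the ribosomal protein genes. Free RNA was not removed, and no doublet caller was run. Coding lengths came from GENCODE vM21 and start windows from RefSeq. Genes named were, in each subunit and at 20 CPM or more, the 5 highest and 5 lowest ratios and 3 highest levels, all members past 1.5-fold or under 5 CPM, Fau and Rack1, and up to 4 genes of each related list; other names were chosen after their values were seen. Some genes that this rule gives are not reported here. The members and lists were chosen with earlier results of these data known. The ratio code was checked on simulated data. Python 3.11.15, numpy 2.4.6, scipy 1.17.1, pandas 2.3.3, scanpy 1.11.5 and leidenalg 0.10.2 were used. Alternatives were other scalings, cell filters, thinning, minimum levels, members and phases.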

Additional observations from a re-analysis of the deposited data

Results flagged for a closer look

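The summed level of the large subunit genes went in opposite directions in different cells. It was 1.016 times as high with dTAG13 in cells called G2 or M, and 0.994 times in cells called S. Between clusters, the ratio was 1.01 in cluster 3, led by Krt19, Prph and Sct, and 0.955 in cluster 4, led by Soga3, Lpar1 and Mapt. Neither difference was tested, because each group has 1 library. Cluster 3 holds 90 DMSO cells and cluster 4 holds 171 dTAG13 cells.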

How the results depend on the processing

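As reported, the summed ratios were 1.02 for large and 1.03 for small subunit genes, the median log2 ratios 0.01 and 0.05, and 3 members lay 1.2-fold or more above and 4 below. Median-of-ratios scaling gave 0.952 and 0.969 for the sums, −0.081 and −0.040 for the medians and 1 member higher. Scaling to other nuclear genes gave sums of 1.019 and 1.038. Thinned cells gave sums of 1.012 and 1.032 and a small subunit median of 0.045. Without paralogs and genes with other products the large sum was 1.017 and 1 member was lower. Cells called S gave sums of 0.994 and 0.999 and medians of −0.0068 and −0.0023. Cells called G2 or M gave sums of 1.016 and 1.033. Cells called G1 gave a large sum of 1.003 and medians of 0.0031 and 0.047. Within clusters, an alternative chosen after seeing the data, the sums were 0.978 and 0.973 and the medians −0.026 and −0.034. The causes were not tested. Over the alternatives the count of members 1.2-fold higher ran from 1 to 3 and that of lower ones from 1 to 6. Of the 26 members that the naming rule gave, 21 kept their direction under all 8 alternatives run for them; the other 5, all within 1.2-fold and among them Rplp1, Rps12, Rps19 and Rps20, did not. No paired analysis was possible because each group has 1 library.

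Counting error is small for the abundant members, and depth limits mainly Rpl3l and Rps23rg1. The spread between cultures is unknown, since the design has no replicates.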
